A study of Arabidopsis thaliana with 24 samples.

Results

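The transposable elements described here carried sparse small RNA in inflorescences of Arabidopsis thaliana. They were the loci typed as transposable element in the authors' deposited table whose mean normalised count, 1 value per locus over all lines, was at least 10 and under 100. This rule gave 2447 elements of the 5889 transposable elements in the table, which holds 14888 loci of all kinds. Another 3136 elements had a mean of 100 or more and 306 had a mean under 10, and 1988 loci were typed separately as transposable element genes. The deposited table lists a locus only in lines where its adjusted p was under 0.05, so each of the 2447 elements had passed the threshold in at least 1 line. The label was checked against the identifiers, and every one of the 2447 has the form used for annotated transposable elements.

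Transposable elements in plants are mostly held silent. RNA polymerase IV and RDR2 make double-stranded RNA from them, DCL3 cuts it into small interfering RNAs, and AGO4 uses these to guide DNA methylation back to the same loci. DCL2 and DCL4 can cut other double-stranded RNA, including that of transposable elements which have become active. RRP4 is a subunit of the RNA exosome, which degrades RNA from its 3' end, and SKI2 is the helicase that feeds RNA to the cytoplasmic exosome. URT1 and HESO1 are terminal nucleotidyl transferases that add uridines to RNA 3' ends, URT1 mainly on messenger RNA and HESO1 mainly on small RNAs that lack 3' methylation. A short RNA mapped to an element can be a small interfering RNA or a fragment of a longer transcript, and the deposited values do not separate these.

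The labels name 24 libraries of size-selected small RNA from inflorescences, in 8 groups of 3, all in the ecotype Col-0. The groups are the wild type, the single mutants urt1-1, heso1-4, rrp4-2 and ski2-5, a double mutant of both transferase genes, heso1-4/urt1-1, and 2 triple mutants that carry rrp4-2 and urt1-1 with heso1-4 (rrp4-2/urt1-1/heso1-4) or with an edited DCL2 gene (rrp4-2/urt1-1/dcl2CRISPR). The series text writes the double mutant with the allele heso1-1, against heso1-4 in the sample labels. The table compares 13 mutant lines with a reference that it does not name, and Col-0, the only labelled group that is not among them, was taken as the reference. By name, 5 lines matched a label: urt1-1, rrp4-2, ski2-5, heso1-4/urt1-1 and rrp4-2/urt1-1/heso1-4. The lines GKheso1, heso1.3, urt1.2, ski2.2, rrp4urt1dcl2.B9, rrp4urt1dcl2het, ski2urt1dcl2.107 and ski2urt1dcl2.123 are called as the table calls them, and which of the 2 rrp4urt1dcl2 lines is the labelled dcl2CRISPR group was not settled. All lines share 1 reference, and no value per library was used here, so depth and replicate spread are unknown. When the entries of a line are ranked by p, the table holds only 50.9% to 82.8% of the ranks down to its last entry, so nothing can be said of an element that a line does not list. The values are sums over whole inflorescences, in which fewer cells of a type and less RNA per cell cannot be told apart.

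The mean normalised counts of the 2447 elements ran from 10.01 to 99.92 with a median of 43.8, against 113.0 over all 5889 transposable elements and 83.2 over all loci. There were 433 elements at 10 to under 20, 957 at 20 to under 50 and 1057 at 50 to under 100. These are the values that chose the elements and are given as a description. Just below the lower limit stood AT5TE88745 at 9.903 and AT2TE05700 at 9.929, and just above it AT4TE34565 at 10.012 and AT1TE56240 at 10.016. By the authors' deposited table AT5TE88745 had a log2 fold change of -1.60 in rrp4urt1dcl2het, AT2TE05700 had -1.64 there and -1.62 in rrp4-2/urt1-1/heso1-4, while AT4TE34565 had 1.46 and AT1TE56240 -1.52, both of them in rrp4-2/urt1-1/heso1-4. Just below the upper limit stood AT5TE46880 at 99.890 and AT2TE21470 at 99.923, and just above it AT2TE11375 at 100.028 and AT3TE58340 at 100.040. AT5TE46880 stood at 0.87 and AT2TE11375 at 0.56 in the authors' deposited table, both in rrp4urt1dcl2het alone. AT2TE21470 rose by 0.96 in rrp4-2, 1.23 in rrp4urt1dcl2.B9, 1.44 in rrp4urt1dcl2het and 0.74 in ski2urt1dcl2.123 in the authors' deposited table, and AT3TE58340 fell by 1.12, 0.84 and 1.58 in the same 3 rrp4 lines and by 1.37 in ski2.2. The mean is taken over the libraries of all lines, so an element that rose strongly in a line owes part of its mean count to that line.

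The elements lay on all 5 chromosomes, with 486 on chromosome 1, 442 on chromosome 2, 607 on chromosome 3, 416 on chromosome 4 and 496 on chromosome 5. They made up 46.1% of the listed transposable elements of chromosome 3 and 39.2% to 41.3% of those of the other chromosomes. The identifier gives the chromosome and a number that rises along it, and this order is the only position used here, with no coordinates, families or sequences of the elements. Some elements cannot be told from each other by their values. There were 29 sets, with 59 elements in all, that had in the authors' deposited table the same mean count, the same lines and the same fold changes and p-values. The largest set held 3, AT3TE55845, AT3TE55850 and AT3TE55865, at a mean count of 22.67. On chromosome 5, 5 pairs stood exactly 320 numbers apart, from AT5TE45265 with AT5TE45585 at 23.21 to AT5TE45310 with AT5TE45630 at 11.59. On chromosome 1, 4 pairs stood 220 numbers apart, such as AT1TE47220 with AT1TE47440 at 56.01. One pair, AT4TE50930 and AT5TE17360 at 34.65, was on different chromosomes. How reads that match several places were counted is not given in the sources used here, and copies with the same sequence would share such reads, so these 59 elements are not 59 separate measurements.

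Neighbours by number mostly moved together within a line. Among consecutive listed elements at most 10 numbers apart, 49 of 49 pairs had the same direction in rrp4-2, 34 of 36 in rrp4urt1dcl2.B9, 329 of 339 in rrp4urt1dcl2het and 182 of 195 in rrp4-2/urt1-1/heso1-4. In the lines ski2urt1dcl2.107 and ski2urt1dcl2.123 the numbers were 16 of 19 and 12 of 13, and in the other lines there were 5 pairs or fewer. Near-numbered annotations can be fragments of one insertion or can overlap, and whether they share reads was not tested.

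In the single exosome mutant rrp4-2, 210 of the 2447 elements were higher and 114 lower than in Col-0 by the authors' DESeq2 adjusted p. This is 8.58% and 4.66% of the elements, beside 14.7% and 4.33% of all 14888 loci. The median log2 fold change was 1.39 among the elements that rose and -1.04 among those that fell, and the values ran from -5.42 to 7.81. Of the listed sparse elements 64.8% were higher, against 79.0% of the listed elements with a mean of 100 or more, 94.6% of the transposable element genes and 77.3% of all loci listed in rrp4-2. The share of elements that rose was thus below that of all loci. The share that fell was close to it, but 70 of the 114 falls lay in a stretch each of chromosomes 3 and 5 that are described further on. Without the sparse elements of these stretches 1.99% of the others fell, beside 3.92% of all loci counted without them. The stretches were chosen after their falls in rrp4-2 were seen, so the share that fell had to drop. Other loci of the stretches, more abundant elements among them, were kept in the 3.92%.

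The triple mutant with urt1-1 and heso1-4 beside rrp4-2 listed falls against Col-0 at many of the elements. These counts do not compare it with rrp4-2, which could be done for 100 elements only and is given further on. In rrp4-2/urt1-1/heso1-4, 938 were lower and 329 higher by the authors' DESeq2 adjusted p, which is 38.3% and 13.4% of the elements. Over all loci the shares were 22.4% lower and 28.2% higher. The median was -1.06 among the elements that fell and 1.17 among those that rose, with a range from -8.48 to 7.08. Only 26.0% of the listed sparse elements were higher, against 14.5% of the elements with a mean of 100 or more, 75.9% of the transposable element genes and 55.7% of all listed loci. Elements of both ranges of mean count therefore fell more often than they rose here, while transposable element genes rose more often than they fell. No test of these shares was made, since only loci past the threshold are listed.

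The 2 lines named for rrp4, urt1 and dcl2 differed from each other in the number of elements listed. In rrp4urt1dcl2.B9, 207 elements were higher and 180 lower, which is 8.46% and 7.36% beside 21.9% and 5.18% of all loci. In rrp4urt1dcl2het, 965 were higher and 400 lower, which is 39.4% and 16.3% beside 41.2% and 19.4% of all loci, so that both shares were near the background of that line. Without the sparse elements of the same 2 stretches 41.4% rose and 10.2% fell, beside 41.5% and 18.5% of all loci counted without them. The median log2 fold change of the listed elements was 0.65 in rrp4urt1dcl2.B9 and 0.78 in rrp4urt1dcl2het. In rrp4urt1dcl2.B9 53.5% of the listed sparse elements were higher, against 62.9% of the elements with a mean of 100 or more and 91.1% of the transposable element genes. In rrp4urt1dcl2het the shares were 70.7%, 82.1% and 97.6%. In both lines, as in rrp4-2, the sparse elements had a smaller share of rises than the more abundant elements, whereas in rrp4-2/urt1-1/heso1-4 they had a larger one. Without the 2 stretches the share of sparse elements was 82.3% in rrp4-2, 57.5% in rrp4urt1dcl2.B9 and 80.2% in rrp4urt1dcl2het. The more abundant elements were not recounted without the stretches, so these shares have no like value beside them.

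**Figure D1:**
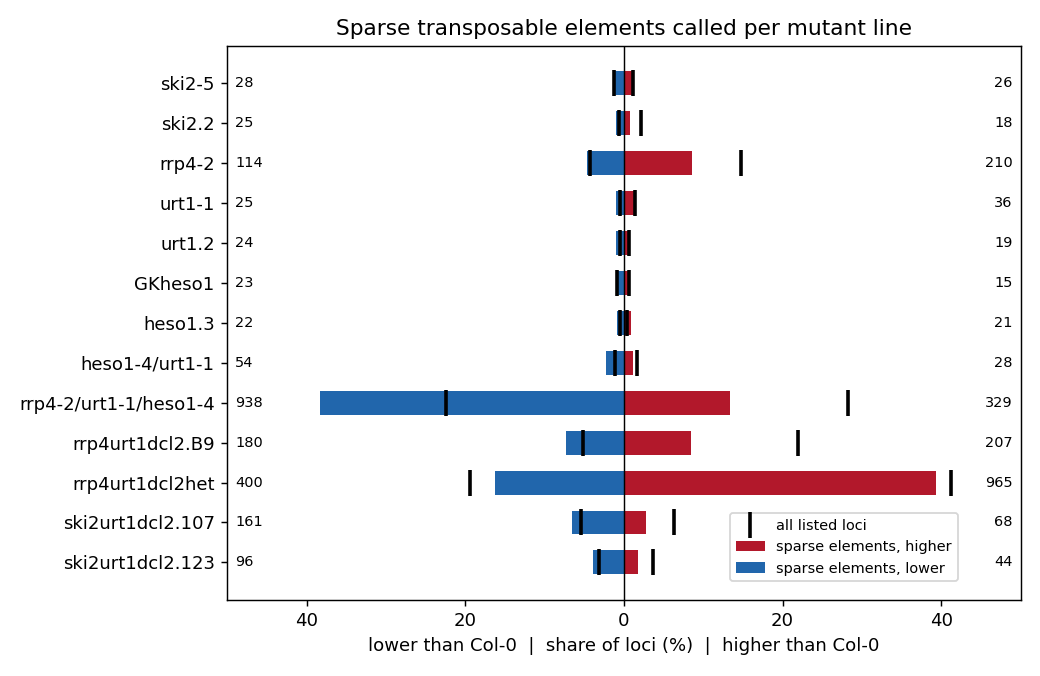
Share of the 2447 sparse elements listed as higher (red, right) or lower (blue, left) than Col-0 in each of the 13 lines, in percent, with the counts at the margins and the share of all 14888 loci as black ticks. The triple mutant rrp4-2/urt1-1/heso1-4 has the longest bar to the left, 938 elements, and rrp4urt1dcl2het the longest to the right, 965 elements.

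Mutants of the uridylating enzymes alone listed few of the elements. In urt1-1, 36 were higher and 25 lower, 1.47% and 1.02% beside 1.46% and 0.504% of all loci. In urt1.2, 19 were higher and 24 lower, 0.776% and 0.981% beside 0.692% and 0.477%. In GKheso1, 15 were higher and 23 lower, 0.613% and 0.94% beside 0.658% and 0.813%. In heso1.3, 21 were higher and 22 lower, 0.858% and 0.899% beside 0.43% and 0.49%. The double mutant heso1-4/urt1-1 had 28 higher and 54 lower, 1.14% and 2.21% beside 1.59% and 1.13%. In these 5 lines each share of elements that fell was larger than that of all loci, while the shares that rose lay on both sides of the background.

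The helicase mutants listed few elements as well. In ski2-5, 26 were higher and 28 lower, 1.06% and 1.14% beside 1.18% and 1.22% of all loci, so both shares were near the background. In ski2.2, 18 were higher and 25 lower, 0.736% and 1.02% beside 2.16% and 0.672%. Of the 25 falls, 12 lay in the stretch of chromosome 3, and without it and that of chromosome 5 there were 18 higher and 13 lower, so that 58.1% of the listed elements were higher in place of 41.9%. The lowest mean count listed in ski2.2 for any locus was 25.8, so that no element below that value is listed there. The lines ski2urt1dcl2.107 and ski2urt1dcl2.123, which match no label, had 68 higher and 161 lower, and 44 higher and 96 lower. These are 2.78% and 6.58% beside 6.33% and 5.43% of all loci, and 1.80% and 3.92% beside 3.67% and 3.11%. In both lines the elements rose less often and fell more often than all loci did.

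Most of the elements were listed in few lines. There were 1595 elements, 65.2% of the total, listed in 1 line, 472 listed in 2 lines and 195 in 3. Over all loci 56.9% were listed in 1 line. Of those listed once, 705 were listed in rrp4-2/urt1-1/heso1-4, where 667 were lower and 38 higher, which is 28.8% of the elements beside 22.2% of all loci. Another 728 were listed in rrp4urt1dcl2het alone, where 545 were higher and 183 lower, or 29.8% beside 27.9%. In rrp4-2, 54 elements were listed in no other line, 42 of them higher, or 2.21% beside 1.41%. Since the table holds only part of the ranks and small changes fall below the limit of sparse loci, being listed once does not show that the change was particular to that line.

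The size of a listed change depended on the mean count. In rrp4-2 the median absolute log2 fold change was 1.85 for elements with a mean of 10 to under 20, 1.17 for 20 to under 50, 0.88 for 50 to under 100 and 0.65 for elements at 100 to under 300. The median standard error recovered from the authors' p-values fell alongside, from 0.45 through 0.32 and 0.24 to 0.18. The smallest change listed in rrp4-2 was 1.04 in the lowest of these ranges and 0.39 in the highest. In rrp4-2/urt1-1/heso1-4 the medians were 1.56, 1.11, 0.83 and 0.63, and in rrp4urt1dcl2het 1.37, 1.01, 0.83 and 0.75. An element near the lower limit was therefore listed only when its change was about 1 on the log2 scale or more, and the fold changes of sparse and abundant elements are not on an equal footing. The direction also varied over the range in rrp4-2, where 79.0% of the listed elements at 10 to under 20, 61.3% at 20 to under 50 and 58.8% at 50 to under 100 were higher.

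**Figure D2:**
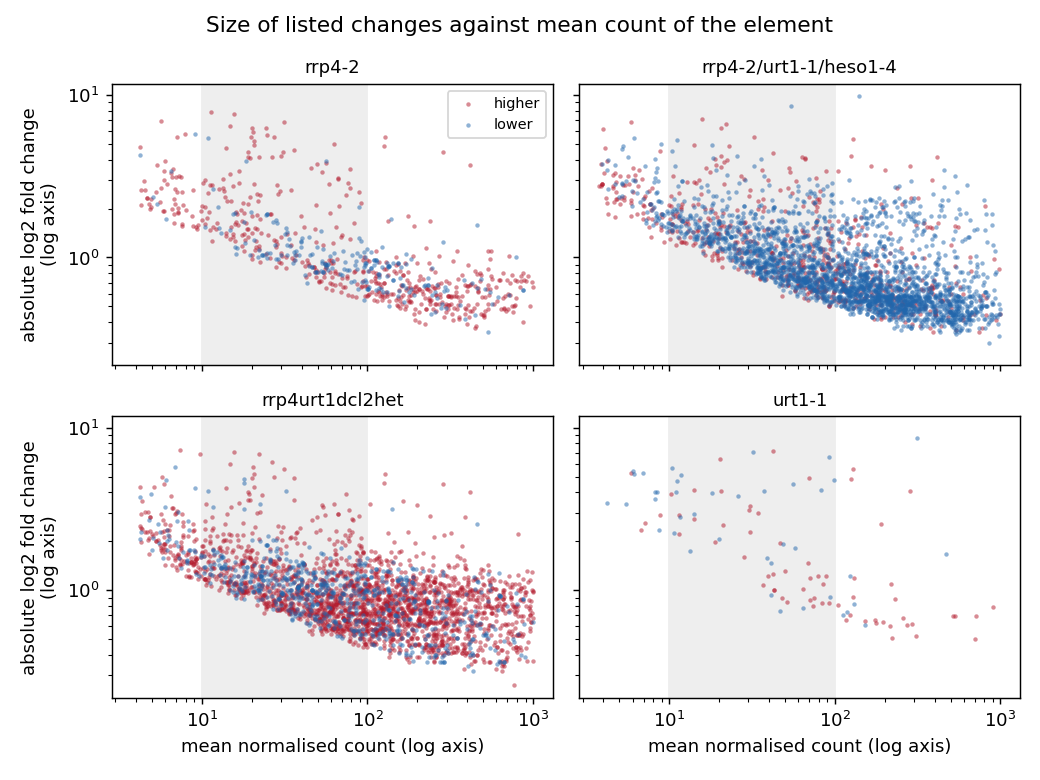
Absolute log2 fold change against Col-0 (log axis) by mean normalised count (log axis) for each listed transposable element in 4 lines, red for higher and blue for lower, with the range of the sparse elements shaded. The lower edge of the points falls from left to right: in rrp4-2 the smallest listed change is 1.04 at a mean of 10 to under 20 and 0.39 at 100 to under 300.

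Large changes were a small part of the whole. Of the 4076 listed values of the sparse elements, 186 were above 4 in size on the log2 scale, which is 4.56% beside 2.83% of the values of all loci. There were 23 of these in rrp4-2, 7.10% of its listed elements beside 2.4% of its listed loci, and 22 in rrp4urt1dcl2.B9, 5.68% beside 2.26%. The line ski2urt1dcl2.107 had 20, or 8.73% beside 5.94%. In rrp4-2/urt1-1/heso1-4 there were 19 and in rrp4urt1dcl2het 17, 1.50% and 1.25% beside 1.88% and 1.44%, so that these shares were near the background. In the double mutant heso1-4/urt1-1 there were 18 among only 82 listed elements, 22.0% beside 9.63%, and in urt1-1 15 among 61, 24.6% beside 11.3%. The other lines had from 5 in ski2.2, 11.6% beside 4.04%, to 12 in GKheso1, 31.6% beside 12.3%. In ski2-5 the shares were 16.7% beside 8.38%, and in urt1.2 18.6% beside 14.9%. In heso1.3 they were 25.6% beside 23.4% and in ski2urt1dcl2.123 5.0% beside 5.94%, both near the background. Among the elements that fell, the median was -2.95 in urt1-1 and -3.07 in heso1.3, against -1.04 in rrp4-2. The largest p listed was 0.00037 in urt1-1 and 0.00294 in rrp4-2, so small changes were listed less readily in urt1-1.

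**Figure D3:**
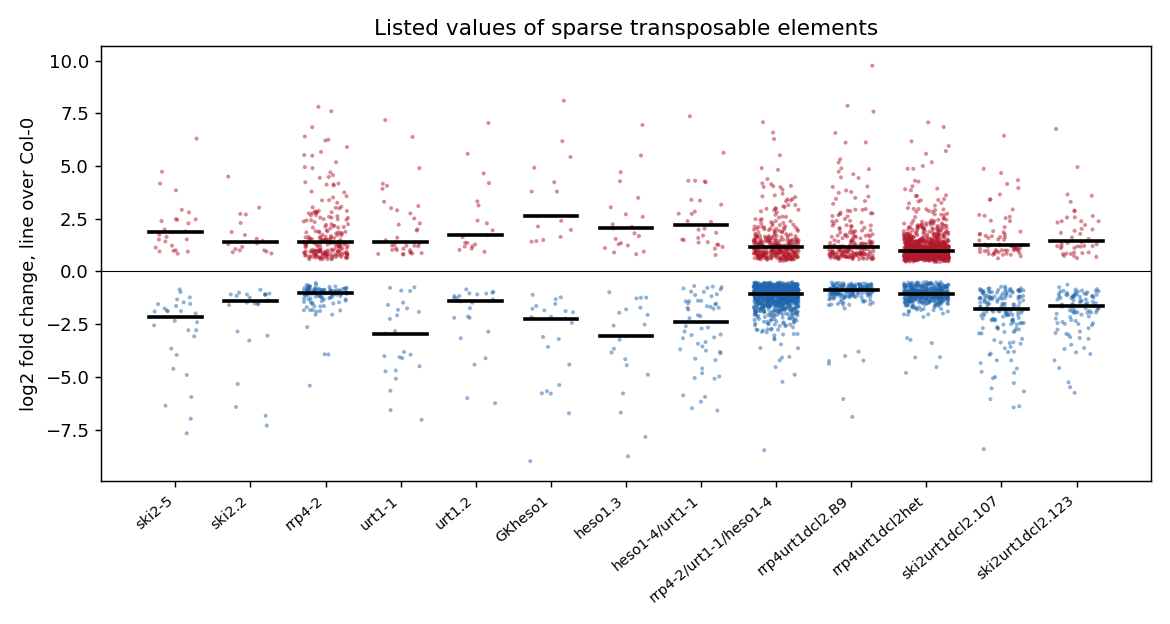
Each listed log2 fold change of the sparse elements by line, red for higher and blue for lower than Col-0, with black bars at the median of each direction. The medians of the elements that rose in rrp4-2, rrp4-2/urt1-1/heso1-4, rrp4urt1dcl2.B9 and rrp4urt1dcl2het lie at 1.39, 1.17, 1.17 and 0.96, and single values reach 9.76.

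The elements with the largest rises in the rrp4 lines are given side by side, since these lines share both the reference and the mutated gene. The element AT4TE34025, with a mean count of 15.7, had in the authors' deposited table log2 fold changes of 7.60 ± 1.21 in rrp4-2, 7.58 ± 1.21 in rrp4urt1dcl2.B9, 7.07 ± 1.21 in rrp4urt1dcl2het and 7.08 ± 1.21 in rrp4-2/urt1-1/heso1-4. Here and below ± gives the standard error recovered from the authors' p-value. It was listed in no line without an rrp4 mutation, and its 4 values lay within 1 standard error of each other. AT5TE64050, at a mean of 20.5, was listed in the same 4 lines of the authors' deposited table, at 5.90 ± 0.87, 6.12 ± 0.87, 5.71 ± 0.87 and 6.28 ± 0.88 in that order. AT5TE36595, at 22.0, stood at 4.13 ± 0.93, 6.11 ± 0.92, 6.85 ± 0.92 and 6.59 ± 0.92 in the authors' deposited table, lowest in the single mutant. AT1TE31790, at 11.3, was listed at 7.81 ± 1.35 in rrp4-2 and 7.86 ± 1.35 in rrp4urt1dcl2.B9 only.

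Other large rises were found in fewer of the rrp4 lines or outside them too. AT1TE77020, with a mean of 26.5, rose by 4.17 ± 0.60 in rrp4-2 and 6.17 ± 0.60 in rrp4urt1dcl2het in the authors' deposited table. The largest value of any sparse element was that of AT4TE42450, at a mean of 11.1, with 9.76 ± 1.22 in rrp4urt1dcl2.B9 in the authors' deposited table and no entry in any other line. AT1TE55365, at 31.3, was listed in 5 lines of the authors' deposited table, at 6.84 ± 1.22 in rrp4-2, 7.04 ± 1.22 in urt1.2, 5.50 ± 1.22 in heso1.3, 6.57 ± 1.22 in rrp4urt1dcl2.B9 and 5.58 ± 1.22 in rrp4urt1dcl2het. AT4TE45325, at 20.1, stood between 4.87 ± 1.50 in rrp4urt1dcl2het and 6.44 ± 1.59 in ski2urt1dcl2.107 in the 6 lines of the authors' deposited table that list it, rrp4-2, urt1-1, GKheso1 and rrp4urt1dcl2.B9 being the others. These errors are large, and the levels in Col-0 behind such changes, which may be close to 0, are not part of the table.

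AT3TE44640 and AT3TE44630, close neighbours on chromosome 3, were higher mainly in lines without an rrp4 mutation, and the first of them had the highest value of any sparse element in 6 of those lines. AT3TE44640, with a mean of 42.1, had 6.30 ± 1.17 in ski2-5, 7.18 ± 1.17 in urt1-1, 8.10 ± 1.17 in GKheso1, 6.95 ± 1.17 in heso1.3, 7.36 ± 1.17 in heso1-4/urt1-1, 6.76 ± 1.17 in ski2urt1dcl2.123 and 4.38 ± 1.19 in rrp4-2/urt1-1/heso1-4 by the authors' deposited table. AT3TE44630, with a mean of 69.9, had 4.17 ± 0.71, 4.90 ± 0.71, 4.23 ± 0.72, 4.28 ± 0.71, 4.30 ± 0.71, 3.59 ± 0.72 and 2.34 ± 0.73 in those lines of the authors' deposited table, and 3.96 ± 0.79 in ski2urt1dcl2.107. Both elements had their smallest listed rise in the triple mutant, and neither was listed in rrp4-2, ski2.2, urt1.2 or either rrp4urt1dcl2 line. AT2TE60325, at a mean of 32.7, was listed in 3 lines of the authors' deposited table, all named for heso1, at 5.43 ± 0.52 in GKheso1, 5.51 ± 0.52 in rrp4-2/urt1-1/heso1-4 and 5.63 ± 0.52 in heso1-4/urt1-1. It was not listed in heso1.3.

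The largest falls came from elements listed in several lines. AT2TE45130, with a mean of 54.2, stood in the authors' deposited table at -9.00 ± 1.92 in GKheso1, -8.48 ± 1.92 in rrp4-2/urt1-1/heso1-4, -7.68 ± 1.84 in ski2-5, -6.85 ± 1.71 in ski2.2 and -6.18 ± 1.62 in heso1-4/urt1-1. AT1TE66060, at 36.6, had -7.31 ± 1.49 in ski2.2, -8.77 ± 1.49 in heso1.3, -3.82 ± 0.99 in heso1-4/urt1-1, -6.90 ± 1.36 in rrp4urt1dcl2.B9 and -8.43 ± 1.77 in ski2urt1dcl2.107 in the authors' deposited table. AT4TE27065, at 32.0, had -7.04 ± 1.19 in urt1-1, -6.43 ± 1.17 in ski2.2, -5.96 ± 1.09 in ski2-5, -5.26 ± 0.96 in ski2urt1dcl2.123, -4.08 ± 0.87 in rrp4urt1dcl2het and -3.85 ± 0.87 in heso1.3 in the authors' deposited table. For none of these was a single mutated gene common to all lines that list the element, though some of those lines shared one.

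Other large falls were listed in mutants of the uridylating enzymes and elsewhere. AT1TE69860, with a mean of 92.3, was at -6.58 ± 0.95 in urt1-1, -5.95 ± 0.91 in heso1-4/urt1-1 and -3.05 ± 0.78 in ski2.2 in the authors' deposited table. AT2TE77480, at 18.0, was listed in the authors' deposited table at -6.73 ± 1.21 in GKheso1, -6.49 ± 1.21 in heso1-4/urt1-1 and -4.81 ± 0.71 in rrp4urt1dcl2het. AT1TE64310, at 41.5, was listed there at -6.60 ± 1.25 in heso1-4/urt1-1, -5.39 ± 1.13 in GKheso1 and -2.26 ± 0.78 in rrp4-2/urt1-1/heso1-4. AT4TE03800, at 18.0, was lower in 9 lines of the authors' deposited table, from -1.65 ± 0.37 in rrp4-2 to -4.90 ± 0.79 in rrp4-2/urt1-1/heso1-4, and the values in all lines other than rrp4-2 were at -3.65 ± 0.65 or lower. AT1TE61180, at 11.1, was also lower in 9 lines of the authors' deposited table, from -3.66 ± 0.79 in ski2-5 to -6.01 ± 1.26 in urt1.2, and was listed in no line with an rrp4 mutation other than rrp4-2/urt1-1/heso1-4. AT2TE49075, at 11.8, was lower in 8 lines of the authors' deposited table, from -1.88 ± 0.48 in GKheso1 to -7.85 ± 1.23 in heso1.3. AT2TE51470, at 10.9, was lower in 6 lines there, from -2.71 ± 0.69 in heso1-4/urt1-1 to -5.01 ± 1.51 in ski2urt1dcl2.107, and AT1TE59315, at 11.2, in 4 lines, from -1.11 ± 0.42 in rrp4urt1dcl2het to -6.40 ± 1.49 in ski2urt1dcl2.107.

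The 3 largest falls in rrp4-2 were as follows. AT1TE86390, with a mean of 10.8, was at -5.42 ± 1.18 in rrp4-2, -4.83 ± 1.17 in heso1-4/urt1-1, -4.22 ± 1.09 in ski2urt1dcl2.123, -4.07 ± 1.03 in rrp4urt1dcl2het and -3.64 ± 1.06 in rrp4-2/urt1-1/heso1-4 by the authors' deposited table. AT4TE46700, at 18.4, was at -3.93 ± 1.00 in rrp4-2 there and at -4.09 ± 1.16 in rrp4-2/urt1-1/heso1-4. AT3TE23710, at 56.0, was lower in 8 lines of the authors' deposited table, from -2.45 ± 0.72 in ski2urt1dcl2.123 to -5.34 ± 0.83 in ski2.2, with -3.94 ± 0.73 in rrp4-2. The named falls in rrp4-2 were thus all found in other lines too.

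There were 7 elements listed in 10 or more lines. AT4TE25085, with a mean of 34.5, was listed in all 13 lines of the authors' deposited table and was higher in each, from 2.12 ± 0.48 in rrp4urt1dcl2het to 3.03 ± 0.47 in ski2.2. AT2TE31990, at 20.5, was higher in 12 lines of the authors' deposited table, from 4.06 ± 0.92 in urt1-1 to 4.95 ± 0.91 in ski2urt1dcl2.123. AT2TE27530, at 18.9, was higher in 12 lines of the authors' deposited table, from 1.42 ± 0.50 in rrp4-2/urt1-1/heso1-4 to 2.59 ± 0.46 in heso1.3, and AT3TE43450, at 68.9, was higher in 12 lines, from 0.75 ± 0.24 in rrp4-2/urt1-1/heso1-4 to 1.55 ± 0.23 in ski2.2. For AT4TE25085, AT2TE31990 and AT3TE43450 the whole range over lines was under 1 on the log2 scale. A low level in the Col-0 libraries would move every line at once, and that cannot be told apart here from a rise in every mutant, since all lines share that reference.

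The other 3 of the 7 were listed in 10 lines each. AT4TE14490 had the narrowest range of the 7 and was higher in 10 lines of the authors' deposited table, from 0.78 ± 0.21 in heso1-4/urt1-1 to 1.10 ± 0.21 in ski2urt1dcl2.123. AT3TE60310, with a mean of 64.2, was higher in 10 lines of the authors' deposited table, from 0.74 ± 0.26 in rrp4-2/urt1-1/heso1-4 to 2.76 ± 0.22 in rrp4urt1dcl2.B9, with 2.30 ± 0.22 in rrp4urt1dcl2het and 1.55 ± 0.23 in rrp4-2. AT5TE20680, at 10.3, was lower in 10 lines of the authors' deposited table, from -1.40 ± 0.47 in rrp4urt1dcl2het to -6.99 ± 1.26 in ski2-5. Its value in rrp4urt1dcl2het stood apart from the other 9 lines, which ran from -4.54 ± 0.74 downwards.

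**Figure D4:**
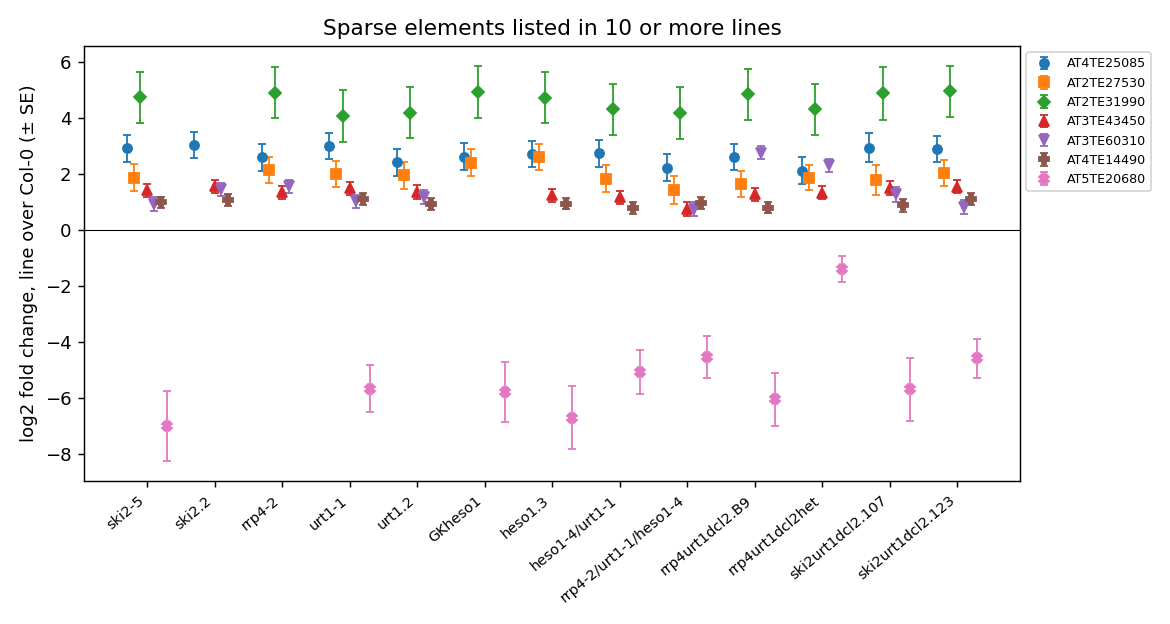
Log2 fold change against Col-0, with its recovered standard error as the bar, of the 7 sparse elements listed in 10 or more lines, by line. AT2TE31990 stays between 4.06 and 4.95, AT4TE25085 between 2.12 and 3.03, and AT5TE20680 is lower in all 10 lines that list it, with its smallest fall, -1.40, in rrp4urt1dcl2het.

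The falls in rrp4-2 were gathered in a few stretches of the chromosomes. On chromosome 3, 65 of the 112 listed elements were lower in rrp4-2, whereas on chromosome 2 only 4 of 43 were. Counted in windows of 1000 identifier numbers, the window starting at 56000 on chromosome 3 held 37 lower and 0 higher of its 81 elements. The nearby windows starting at 58000 and 55000 held 11 lower with 3 higher and 9 lower with 1 higher. The window starting at 57000 lies between these and was not among those with the most falls in rrp4-2. In rrp4urt1dcl2het it held 23 higher and 3 lower of its 29 elements, so the falls did not run through the whole stretch. On chromosome 5 the window starting at 45000 held 13 lower and 0 higher of 47 elements. No other window held more than 3 elements that were lower in rrp4-2. The stretch of chromosome 3 from 55000 to 58999 and that of chromosome 5 from 45000 to 45999 were chosen after these counts were seen and are given as a description.

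In the chromosome 3 stretch, with 189 sparse elements, 57 were lower and 6 higher in rrp4-2, with a median log2 fold change of -0.99, while the rest of the chromosome had 8 lower and 41 higher. In rrp4urt1dcl2het 138 were lower and 39 higher, at a median of -1.08, against 36 lower and 161 higher on the rest of the chromosome. In rrp4urt1dcl2.B9 31 were lower and 8 higher, at -0.88, against 34 lower and 38 higher. In ski2.2 all 12 listed elements of the stretch were lower, at a median of -1.38, and the rest of the chromosome had 1 lower and 4 higher. The triple mutant rrp4-2/urt1-1/heso1-4 had 5 lower and 9 higher in the stretch, at a median of 0.71, whereas on the rest of the chromosome it had 184 lower and 68 higher. Of these 9 rises, 8 lay in the window starting at 57000, which held 1 fall of the triple mutant. Rises prevailed in that window in rrp4urt1dcl2het too, with 23 higher and 3 lower. The line with the most falls of sparse elements elsewhere thus listed few elements in this stretch, and the lines rrp4-2 and rrp4urt1dcl2het, in which rises prevailed elsewhere on the chromosome, listed mostly falls. The lines urt1-1, urt1.2, GKheso1, heso1.3, heso1-4/urt1-1 and ski2urt1dcl2.107 listed 0 sparse elements there, and ski2-5 and ski2urt1dcl2.123 listed 1 and 3.

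The chromosome 5 stretch, with 47 sparse elements, is described in the same way. In rrp4-2 all 13 listed elements were lower, at a median of -0.93, against 10 lower and 48 higher on the rest of the chromosome. In rrp4urt1dcl2het all 47 were listed, 36 lower and 11 higher, at a median of -0.96, against 39 lower and 198 higher on the rest. In rrp4urt1dcl2.B9 only 2 were listed, both lower, and in rrp4-2/urt1-1/heso1-4 only 1, which was higher. Of the 59 elements with a twin in their values, 13 lay in the chromosome 3 stretch and 10 in the chromosome 5 stretch. More abundant elements of the chromosome 3 stretch fell less uniformly: in rrp4-2 28 of them were lower and 21 higher, and in rrp4urt1dcl2het 40 were lower and 63 higher. Those of the chromosome 5 stretch were 8 lower and 0 higher in rrp4-2, and 13 lower and 11 higher in rrp4urt1dcl2het. In ski2.2, which listed 0 sparse elements there, 6 of them were lower and 0 higher.

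Reads of nuclear ribosomal RNA loci were also lower in rrp4-2 and rrp4urt1dcl2het, the only lines that list these loci. In the authors' deposited table AT3G41768 on chromosome 3 was at -0.64 ± 0.18 in rrp4-2 and at -0.98 ± 0.18 in rrp4urt1dcl2het. AT3G41979 was at -0.61 ± 0.19 and -0.86 ± 0.19 there in the authors' deposited table, and neither was listed in rrp4-2/urt1-1/heso1-4, rrp4urt1dcl2.B9 or ski2.2. Since only part of the ranks is listed, this does not show that they were unchanged in those lines. Of ribosomal loci listed in any line, 4 were nuclear and 8 were of plastids and mitochondria. In rrp4-2 the 4 nuclear loci were listed as lower, in rrp4urt1dcl2het all 4 and all 8, and in rrp4urt1dcl2.B9 2 of the 8. The totals of 4 and 8 come from the calls of these same lines, so the counts are a description only. Over all loci 4.33% were lower in rrp4-2, 19.4% in rrp4urt1dcl2het and 5.18% in rrp4urt1dcl2.B9. The part of ribosomal RNA reads in the falls of the 2 stretches was not tested. Without both stretches rrp4-2 had 44 elements lower in place of 114, and 82.3% of its listed elements were higher in place of 64.8%. In rrp4urt1dcl2het 226 were lower in place of 400, and 80.2% were higher in place of 70.7%.

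**Figure D5:**
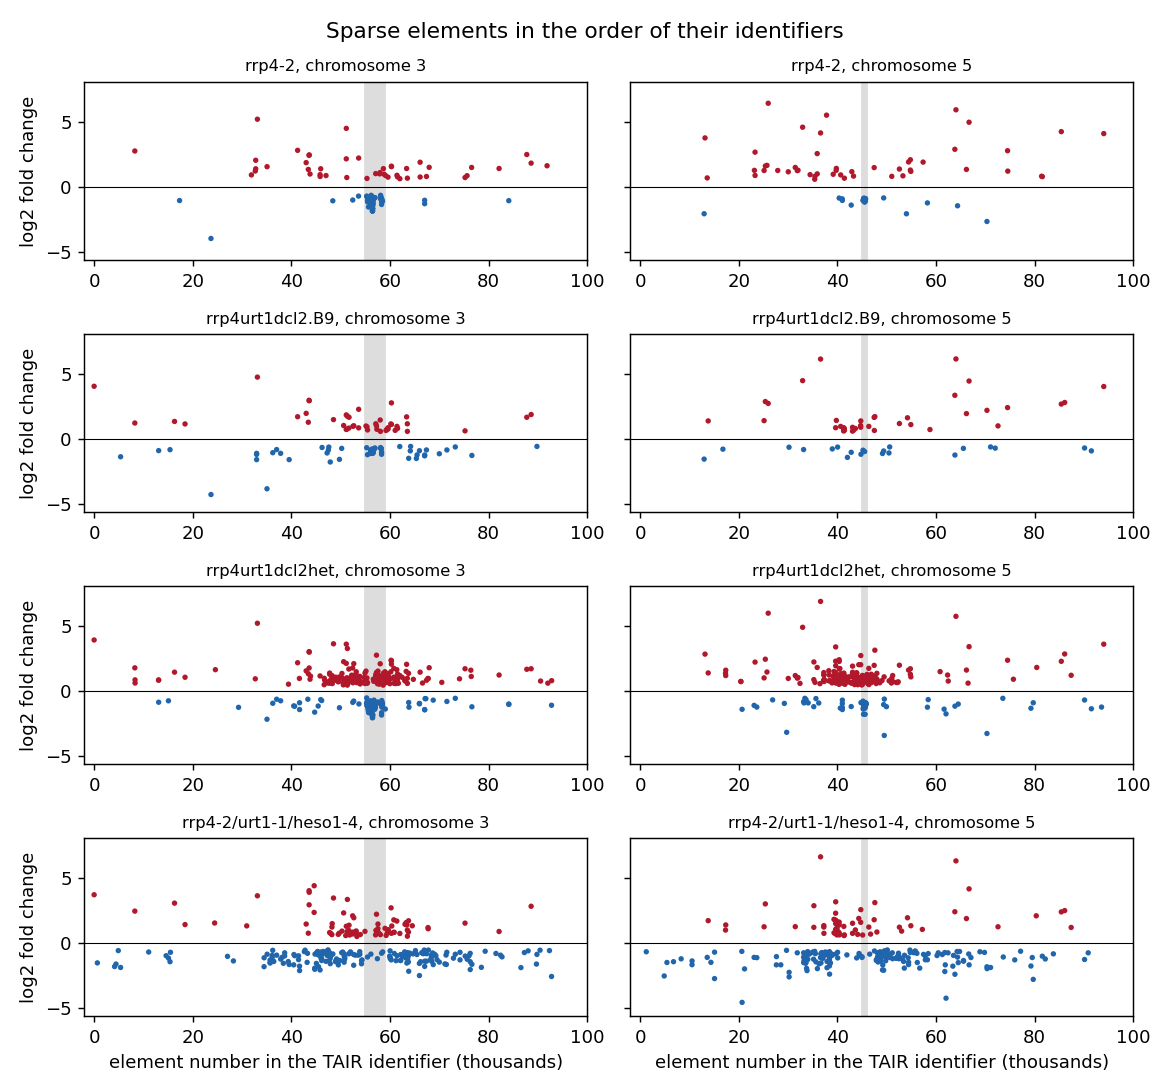
Log2 fold change against Col-0 of each listed sparse element of chromosomes 3 (left) and 5 (right), in the order of the number in its identifier, in 4 lines, red for higher and blue for lower. The shaded stretches hold mostly blue points in rrp4-2 and rrp4urt1dcl2het, with 57 and 138 lower elements on chromosome 3, and few points in rrp4-2/urt1-1/heso1-4, with 5 lower and 9 higher.

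The shares of rises and falls also differed between crowded and scattered elements. Windows of 10000 identifier numbers with over 100 sparse elements held 1617 of the 2447, and 830 lay in the other windows. In rrp4-2/urt1-1/heso1-4, 30.2% of the elements in crowded windows and 54.1% of those elsewhere were lower, and 15.5% and 9.4% were higher. In rrp4urt1dcl2het 48.1% in crowded windows and 22.7% elsewhere were higher, while the shares that fell were 17.0% and 15.1%. In rrp4-2 13.7% of the elements outside crowded windows rose and 2.17% fell, against 5.94% and 5.94% within them. Both stretches lie in crowded windows and held 70 of the 96 falls there in rrp4-2, and in the rest of the crowded windows 6.52% rose and 1.88% fell. Of the 1381 crowded elements outside the stretches 241 were higher and 484 lower in rrp4-2/urt1-1/heso1-4, and 727 and 101 in rrp4urt1dcl2het. Listed falls of the triple mutant were more frequent among scattered elements, and listed rises of rrp4urt1dcl2het more frequent among crowded ones. Crowding was itself counted from the listed elements, of which 705 are listed in the triple mutant alone and 728 in rrp4urt1dcl2het alone. The windows therefore depend in part on the calls compared, and these shares are a description only. No share over all loci of the windows was counted. Since near neighbours moved together, the elements of a window are not independent, and no test of these shares was made.

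The lines were compared with each other by a two-sided z test of the difference of their log2 fold changes, with Benjamini-Hochberg adjustment over all loci listed in both lines of a pair. There were 7 such pairs, and only elements listed in both lines could be tested. The directions of differences were counted for the sparse elements only, so they have no like share over all loci beside them. Whether a lean to one direction was particular to the elements was not tested. The 2 lines of a pair share Col-0, which makes the test cautious when they are treated as independent.

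Between rrp4-2/urt1-1/heso1-4 and rrp4-2, 100 sparse elements could be tested and 22 differed, which is 22.0% beside 18.9% of all loci. Of the 22, 18 were lower and 4 higher in the triple mutant. Among the 100, 12 were listed as higher in rrp4-2 and lower in the triple mutant, and 0 the other way round. AT1TE76020, with a mean of 96.4, was at 0.67 in rrp4-2 and -2.89 in the triple mutant in the authors' deposited table, a difference of -3.56 ± 0.38 with a Benjamini-Hochberg adjusted p of 7.2e-19 by the z test. AT1TE32110, at 96.0, was at 0.58 and -1.59 in the authors' deposited table and differed by -2.17 ± 0.31, and AT2TE12840, at 50.1, was at 0.81 and -1.29 and differed by -2.10 ± 0.39. The adjusted p of the z test was 9.1e-11 and 1e-06 for these. AT1TE76020 and AT1TE32110 were lower in ski2urt1dcl2.107, ski2urt1dcl2.123 and rrp4urt1dcl2het as well, while AT2TE12840 was listed in no further line.

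The rrp4urt1dcl2 lines differed from rrp4-2 at few elements. For rrp4urt1dcl2.B9 7 of 150 differed, 4.67% beside 3.10% of all loci, and for rrp4urt1dcl2het 9 of 236, 3.81% beside 5.11%. In rrp4urt1dcl2.B9 the elements AT2TE27820 and AT1TE62440 rose less than in rrp4-2, by differences of -1.73 ± 0.34 and -1.71 ± 0.38 with adjusted p of 6.4e-05 and 0.00028 in the z test. AT4TE02930, with a mean of 24.5, was at 6.25 ± 0.51 in rrp4-2 and 1.57 ± 0.55 in rrp4urt1dcl2het, the only lines of the authors' deposited table that list it. The difference was -4.68 ± 0.74, with an adjusted p of 3.9e-08 in the z test. AT2TE15675 rose more in rrp4urt1dcl2het than in rrp4-2, by 1.19 ± 0.28, with an adjusted p of 0.00087 in that test.

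The 2 rrp4urt1dcl2 lines differed from each other at 20 of 271 elements, 7.38% beside 6.41% of all loci, and 19 of the 20 were higher in rrp4urt1dcl2het. AT3TE57275, with a mean of 80.7, was at 2.74 ± 0.24 in rrp4urt1dcl2het and 1.01 ± 0.25 in rrp4urt1dcl2.B9 in the authors' deposited table, a difference of 1.73 ± 0.34 with an adjusted p of 2.2e-05 in the z test. AT1TE52885, at 55.2, was at 2.91 ± 0.28 and 1.11 ± 0.29 in the authors' deposited table and differed by 1.80 ± 0.40, with an adjusted p of 0.00025 in that test. Both of these rose in rrp4-2/urt1-1/heso1-4 too, by 2.20 ± 0.24 and 2.48 ± 0.28 in the authors' deposited table, and were listed in no other line. The 1 element that was lower in rrp4urt1dcl2het was AT5TE70340. At a mean of 11.7, it was lower in 8 lines of the authors' deposited table, from -1.82 ± 0.57 in rrp4-2/urt1-1/heso1-4 to -3.25 ± 0.64 in rrp4urt1dcl2het, and at 2.19 ± 0.42 in rrp4urt1dcl2.B9. Its difference between the rrp4urt1dcl2 lines was -5.44 ± 0.76, with an adjusted p of 4.7e-10 in the z test.

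Between rrp4urt1dcl2.B9 and rrp4-2/urt1-1/heso1-4, 27 of 211 elements differed, 12.8% beside 9.64% of all loci, with 15 higher and 12 lower in rrp4urt1dcl2.B9. The elements AT3TE60310 and AT1TE40015 were higher in rrp4urt1dcl2.B9 by 2.02 ± 0.34 and 1.87 ± 0.40, with adjusted p of 1.4e-07 and 6.5e-05 in the z test. AT1TE40015, with a mean of 85.2, was lower in both, at -0.78 ± 0.25 and -2.65 ± 0.31 in the authors' deposited table. Between ski2-5 and rrp4-2 only 19 elements were listed in both, and 1 differed, 5.26% beside 23.4% of all loci. It was AT1TE41790, with a mean of 53.1, at 1.74 ± 0.35 in ski2-5 and 3.37 ± 0.32 in rrp4-2 in the authors' deposited table, a difference of -1.63 ± 0.48 with an adjusted p of 0.0061 in the z test.

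Between heso1-4/urt1-1 and urt1-1, 36 elements could be tested and 0 differed by the adjusted z test, while 3 had an unadjusted p under 0.05 and 2 differed with a correlation of 0.5 between the lines. Over all loci 4 of 127, or 3.15%, differed. The smallest adjusted p was 0.097, for AT4TE78690, which was at 2.35 in heso1-4/urt1-1 and 1.22 in urt1-1 in the authors' deposited table, a difference of 1.13 ± 0.40. A p that misses the threshold does not show that these lines had the same levels.

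Among 36 genes of RNA-directed DNA methylation and of small RNA production, few were listed in any line. These values are small RNA reads from the genes, not messenger RNA levels. In rrp4urt1dcl2het 6 were lower and 0 higher, which is 16.7% lower beside 19.4% of all loci. These 2 shares are not on an equal footing and were not compared. The 36 genes were counted whether or not any line listed them, while all loci counted are listed in at least 1 line. The 6 lower genes were AGO4, the effector of methylation, CLSY3, a recruiter of RNA polymerase IV, CMT2, a methyltransferase, DCL2, DRD1, a remodeller needed by RNA polymerase V, and KTF1, an AGO4 partner. They lay from -0.61 ± 0.21 for AGO4 to -0.82 ± 0.27 for DRD1 in that table of the authors. Small RNA of AGO1, which encodes the main effector of microRNAs, was higher in 5 lines of the authors' deposited table, by 1.50 ± 0.19 in ski2-5, 1.13 ± 0.19 in ski2.2, 0.62 ± 0.19 in rrp4urt1dcl2.B9, 2.00 ± 0.21 in ski2urt1dcl2.107 and 1.85 ± 0.19 in ski2urt1dcl2.123. ROS1, a DNA demethylase, was lower, with -0.39 ± 0.14 in rrp4-2/urt1-1/heso1-4, -0.56 ± 0.14 in ski2.2 and -0.61 ± 0.16 in ski2urt1dcl2.107, by the same deposited table of the authors. None of the 36 was listed in rrp4-2, urt1-1, urt1.2, GKheso1, heso1.3 or heso1-4/urt1-1.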

How the data were processed

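Small RNA was sequenced by the submitters from inflorescences. Per the submitters' processing notes, cutadapt 2.4, STAR 2.6.0a, featureCounts of Subread 1.6.3, DESeq2 and the TAIR10 build were used, in an order and with settings not given in the sources used here. The signal deposited by the authors is a mean of DESeq2-normalised counts per locus, with 1 value for all lines. The log2 fold changes and the unadjusted and adjusted p-values come from the authors' DESeq2 comparisons, per the file headers, and only adjusted p under 0.05 is listed. The depth of the libraries is unknown, and no interval that needs it is given.

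The members, windows and gene lists were chosen with earlier results of these data known. Calls are the authors' own. To recover a standard error, the size of the log2 fold change was divided by the normal quantile that gives the two-sided p-value. Dividing the adjusted by the unadjusted p gave the number of loci adjusted over in a line and the rank of each entry. The z test compared lines, and was tried on simulated data with independent errors. The simulation had no shared reference and no choice of loci by listing, so it does not show how the test behaves with these. Alternatives were an adjusted p under 0.01, a log2 change of at least 1, a mean count of 20 to under 100, a correlation of 0.5 between lines, and, chosen after seeing the data, identical sets counted once and both stretches left out. In each of 8 lines the 3 largest rises and falls were named, with the elements listed in the most lines, those next to the limits and the 3 with the smallest adjusted p per pair. AT3TE60310, AT4TE14490, AT5TE20680 among the most listed, and AT4TE78690, were named after their values were seen. RefSeq symbols were looked up in a TAIR10.1 table, from which no coordinates were used. Python 3.11.15, pandas 2.3.3, numpy 2.4.6, scipy 1.17.1 and matplotlib 3.10.9 were used.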

Additional observations from a re-analysis of the deposited data

Results flagged for a closer look

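The results below were picked out because the change of an element against Col-0 differed between 2 lines by the z test with Benjamini-Hochberg adjustment, and for each pair the 3 elements with the smallest adjusted p are given, or as many as passed. No explanation was tested for them. No value per library was used, so single libraries could not be examined.

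In rrp4-2/urt1-1/heso1-4 minus rrp4-2 the log2 difference was -3.56 for AT1TE76020, -2.17 for AT1TE32110 and -2.10 for AT2TE12840, and each of these was higher than Col-0 in rrp4-2 and lower in the triple mutant. In rrp4urt1dcl2.B9 minus rrp4-2 it was 4.82 for AT5TE70340, -1.73 for AT2TE27820 and -1.71 for AT1TE62440. In rrp4urt1dcl2het minus rrp4-2 it was -4.68 for AT4TE02930, -1.89 for AT1TE76020 and 1.19 for AT2TE15675. In rrp4urt1dcl2.B9 minus rrp4-2/urt1-1/heso1-4 it was 2.02 for AT3TE60310, 4.00 for AT5TE70340 and 1.87 for AT1TE40015. Between the 2 rrp4urt1dcl2 lines, het minus B9, it was -5.44 for AT5TE70340, 1.73 for AT3TE57275 and 1.80 for AT1TE52885. In ski2-5 minus rrp4-2 it was -1.63 for AT1TE41790. AT5TE70340 appears in 3 of these pairs, each with rrp4urt1dcl2.B9, the line in which it was higher than Col-0.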

How the results depend on the processing

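With an adjusted p under 0.01 the elements higher became 16 in ski2-5, 9 in ski2.2, 134 in rrp4-2, 129 in rrp4urt1dcl2.B9, 611 in rrp4urt1dcl2het, 219 in rrp4-2/urt1-1/heso1-4, 44 in ski2urt1dcl2.107 and 26 in ski2urt1dcl2.123. Those lower became 14 in ski2.2, 56 in rrp4-2, 14 in urt1.2, 55 in rrp4urt1dcl2.B9, 199 in rrp4urt1dcl2het, 490 in rrp4-2/urt1-1/heso1-4, 34 in heso1-4/urt1-1 and 100 in ski2urt1dcl2.107. The share of listed elements that were higher became 70.5% in rrp4-2, 70.1% in rrp4urt1dcl2.B9, 75.4% in rrp4urt1dcl2het and 30.9% in rrp4-2/urt1-1/heso1-4, and 13 elements differed between the rrp4urt1dcl2 lines. With a log2 change of at least 1, rrp4-2 kept 65 lower, rrp4-2/urt1-1/heso1-4 had 198 higher and 505 lower, rrp4urt1dcl2.B9 126 higher and 69 lower (64.6% higher) and rrp4urt1dcl2het 443 higher and 240 lower (64.9% higher). At a mean count of 20 to under 100 the elements lower were 16 in urt1-1, 15 in GKheso1, 11 in heso1.3 and 35 in heso1-4/urt1-1. These 3 settings can only remove elements. With a correlation of 0.5 between lines, the z test found 2 elements for heso1-4/urt1-1 minus urt1-1, 37 for rrp4-2/urt1-1/heso1-4 minus rrp4-2, 18 for rrp4urt1dcl2het minus rrp4-2, 42 for rrp4urt1dcl2het minus rrp4urt1dcl2.B9 and 3 for ski2-5 minus rrp4-2. Without the 2 stretches, chosen after seeing the data, ski2.2 had 13 lower and 58.1% higher, rrp4-2 44 lower and 82.3% higher, and rrp4urt1dcl2het 226 lower and 80.2% higher, so that the share of rises passed to the larger side in ski2.2. With identical sets counted once, all 39 counts and shares stayed within 1.5 times, or within the binomial interval, of their value. A split of the elements by distance to genes or by class was not run, since no annotation of the elements was used here. Leaving out single libraries was not run either. No paired analysis was possible because the table holds comparisons and no values per library. The unknown depth limits every sparse element: small changes near a mean count of 10 could not be listed.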
